A study of Mus musculus with 9 samples.

Results

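Brown and white fat cells were compared here at the places in the genome where brown cells carried more cytosine methylation. The subject is 573 intervals of 500 bp, out of 69451 intervals measured on the 19 autosomes, in which all 4 brown libraries lay above all 5 white libraries and the brown mean was at least 15 percentage points above the white mean. The intervals were chosen by these measured levels, so the brown minus white difference is a description of them and was not tested. They make up 0.825% of the measured intervals. The mirrored rule, with brown below white, found 1103 intervals (1.59%). Short stretches over the Hox clusters were left out of both sets. A level is the mean percent methylation over all measured cytosines of an interval in 1 library, and an interval needed at least 4 measured cytosines.

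DNA methylation was measured by reduced representation bisulfite sequencing (RRBS), in which DNA is cut at CpG-containing restriction sites, treated with bisulfite and sequenced. The 4 brown libraries were BAT day 0, BAT day 4, BAT day 6 and BAT NE, from interscapular brown preadipocytes, with NE marking day 6 cells given norepinephrine for 4 h. The 5 white libraries were WAT day 0, WAT day 4, WAT day 6, from inguinal white preadipocytes, and BWAT day 4 and BWAT day 6, white cells differentiated in the presence of norepinephrine. All cells came from 3-week-old BL6 mice, were cultured from the stromal vascular fraction of fat from several mice, and after day 0 were differentiated with insulin, dexamethasone, 3-isobutyl-1-methylxanthine and rosiglitazone. Each condition had 1 library, so the spreads given are over the 4 brown or 5 white libraries, which differ in day and treatment and may come from 1 preparation of cells. Depot of origin and cell lineage cannot be told apart, since every brown library came from the interscapular and every white library from the inguinal depot. The read depth behind each value is unknown beyond the minimum of 10 reads that every cytosine had in all 9 libraries.

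CpG methylation is copied at cell division and so can persist through it. Starts of genes with dense CpGs, known as CpG islands, are usually free of it. Most of the remaining genome is heavily methylated, and intermediate levels are found mainly at distal regulatory DNA and at the edges of islands. Genes that set position along the body, such as homeobox and T-box transcription factors, lie in broad CpG-rich domains and often keep marks of the body region from which a cultured cell came. The levels below are of DNA methylation and not of expression.

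The sequences of 6 of the intervals show what was measured. These were chosen among the widest intervals, the promoter intervals and the pairs of neighbouring members described below. Each is the forward strand of the mouse assembly NCBIM37 (mm9), 5′ to 3′, and capitals mark the CpGs at which at least 1 cytosine was measured.
Upstream of Htr5a, chr5:28154650-28154743: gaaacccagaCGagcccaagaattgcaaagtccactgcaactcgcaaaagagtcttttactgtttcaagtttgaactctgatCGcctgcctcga
Dmrt1 intron, chr19:25642991-25643066: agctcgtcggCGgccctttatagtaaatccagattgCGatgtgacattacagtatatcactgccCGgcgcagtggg
Kit intron, chr5:76024069-76024208: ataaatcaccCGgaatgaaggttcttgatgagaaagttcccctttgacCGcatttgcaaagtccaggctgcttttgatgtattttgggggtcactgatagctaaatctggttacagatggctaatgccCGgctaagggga
Slit2 intron, chr5:48694242-48694400: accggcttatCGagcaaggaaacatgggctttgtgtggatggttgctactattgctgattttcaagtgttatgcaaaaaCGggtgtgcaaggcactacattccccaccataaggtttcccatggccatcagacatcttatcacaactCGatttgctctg
Upstream of Slc38a1, chr15:96488436-96488491: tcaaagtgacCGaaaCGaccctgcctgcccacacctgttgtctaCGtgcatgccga
Rap1gap promoter window, chr4:137219652-137219891: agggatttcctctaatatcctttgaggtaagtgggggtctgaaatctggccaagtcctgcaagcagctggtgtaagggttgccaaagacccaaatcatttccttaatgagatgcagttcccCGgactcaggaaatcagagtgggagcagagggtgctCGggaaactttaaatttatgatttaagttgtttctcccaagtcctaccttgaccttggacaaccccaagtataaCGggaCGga

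At the 4 cytosines measured upstream of Htr5a, mean levels were 71.8% to 82.5% over the brown libraries and 12.6% to 24.8% over the white libraries. The 5 cytosines of the Dmrt1 stretch lay between 53.5% and 75.3% in brown and between 8.44% and 24.1% in white. In the Kit stretch the 4 cytosines ran from 61.3% to 89.5% in brown and from 9.42% to 44.4% in white, and in the Slit2 stretch from 58.6% to 90.3% in brown and from 21.2% to 47.4% in white. The 6 cytosines upstream of Slc38a1, on both strands of 3 CpGs, differed between brown and white by 40.8 to 61.8 points, each in the same direction. The 6 cytosines of the Rap1gap stretch lay between 53.1% and 97.3% in brown and between 26.4% and 72.5% in white. These values are part of those that chose the intervals and are given as a description.

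The widest 15 intervals all lay in introns or between genes. The interval farthest apart lay 13.8 kb upstream of Htr5a, which encodes a serotonin receptor, at chr5:28154501-28155000. Its level was 81.8%, 81.5% and 66.8% in BAT at days 0, 4 and 6 and 79.7% in BAT NE, against 19.7%, 22.8% and 13.1% in WAT at days 0, 4 and 6 and 19.8% and 12.5% in BWAT at days 4 and 6. The brown mean was 77.4% ± 7.2 (SD, n = 4 libraries) and the white mean 17.6% ± 4.5 (SD, n = 5 libraries), a difference of 59.8 points. All 4 brown libraries stood well clear of the white ones, with BAT day 6 the lowest of them. The second widest interval, 34.8 kb upstream of E330021D16Rik, differed by 51.8 points and had the widest spread among brown libraries of the leading 15, from 59.5% in BAT day 4 to 84.3% in BAT day 6.

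Dmrt1, a transcription factor of testis differentiation, held the third widest interval, at chr19:25643001-25643500 in an intron 62.9 kb inside the gene. Levels were 66.4%, 63.0% and 63.0% in BAT at days 0, 4 and 6 and 68.7% in BAT NE, against 14.7%, 17.1% and 13.2% in WAT at days 0, 4 and 6 and 12.2% and 14.3% in BWAT at days 4 and 6. The 45.9 points between the lowest brown and the highest white library were the largest such gap in the set. The interval directly before it, with 14 cytosines, was also in the set, at 56.3% ± 8.5 in brown and 13.8% ± 2.0 in white (SD, n = 4 and 5 libraries). The other 6 measured intervals of Dmrt1 were in neither set.

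An intron of Kit, the receptor for stem cell factor, held the interval chr5:76024001-76024500. There brown levels were 74.4%, 65.1% and 68.8% in BAT at days 0, 4 and 6 and 70.6% in BAT NE, against 23.4%, 20.4% and 18.8% in WAT at days 0, 4 and 6 and 23.9% and 28.4% in BWAT at days 4 and 6. No library of one lineage came within 36.7 points of the other lineage. Kit had 7 measured intervals, and this was its only one in the set.

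An intergenic stretch 15.1 kb upstream of Slc38a1, a neutral amino acid transporter that carries glutamine, held a pair of adjacent intervals. The first, chr15:96488001-96488500, averaged 68.1% ± 5.1 in brown and 18.5% ± 4.6 in white (SD, n = 4 and 5 libraries). The second averaged 49.0% ± 4.0 in brown and 16.6% ± 2.3 in white over 13 cytosines. Of the 12 intervals measured in the promoters, exons and introns of Slc38a1, 0 were members and 1 was in the mirrored set. Differences of over 43 points were also found downstream of Cd83, upstream of Mtmr6 and Raet1d, far downstream of the starts of Cadm1 and Fam173b, and far upstream of Gm765 and Pou3f2. They were found as well in introns of 1700011I03Rik, 4930555I21Rik and Cobll1. Raet1d, a ligand of the natural killer receptor NKG2D, was nearly unmethylated in white (7.4% ± 3.5) at the interval 22.4 kb upstream of it and at 55.4% ± 2.4 in brown, whereas the Cobll1 intron was at 89.5% ± 2.5 in brown and 46.0% ± 2.2 in white.

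**Figure D1:**
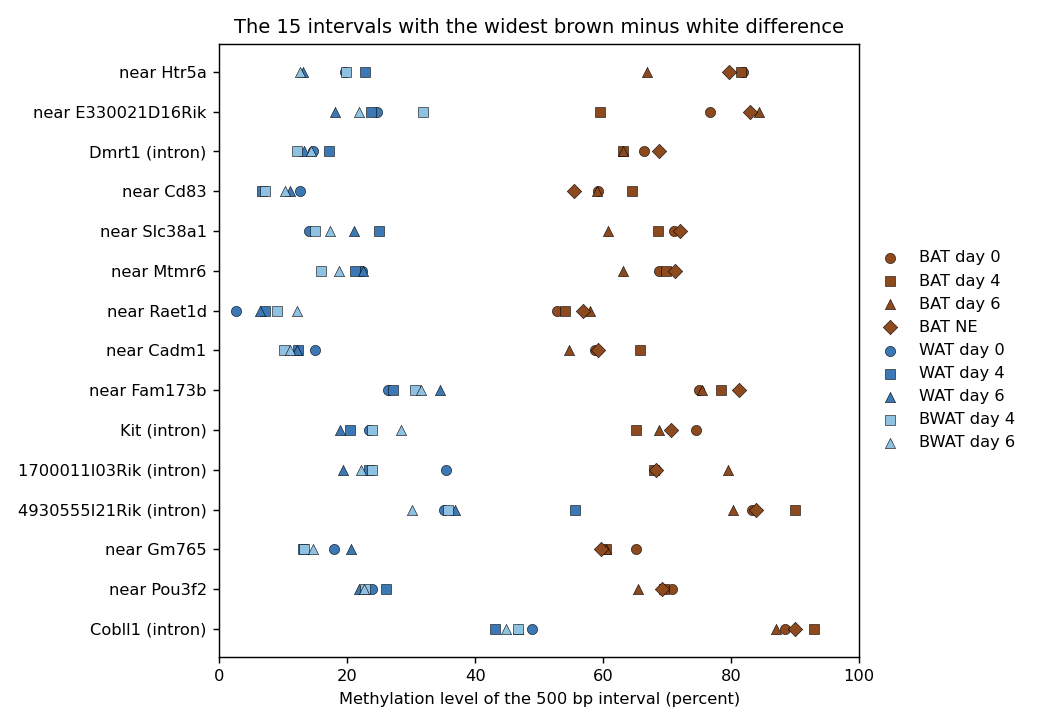
Methylation level (percent, horizontal axis) of the 15 intervals with the widest difference, 1 row each named by the gene they lie in or nearest to, with 1 point per library (brown symbols for BAT and BAT NE, dark blue for WAT, light blue for BWAT). In every row the 4 brown points lie to the right of the 5 white points, by 45.9 points in Dmrt1 and by 24.7 points in 4930555I21Rik, the row where they come closest.

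Most members differed by less. The median difference was 20.1 points (interquartile range 16.9 to 24.9), with 287 intervals at 20 points or more, 142 at 25 or more, 78 at 30 or more, 18 at 40 or more and 3 at 50 or more. The median gap between the lowest brown and the highest white library was 11.9 points. Just inside the threshold stood intervals nearest to Rnaseh2b (15.06 points) and Gng13 (15.0003 points). Just outside it stood intervals at Fem1b (14.996 points) and Sez6l (14.992 points). The size threshold set most of the membership, since 2929 intervals (4.22% of those measured) had all brown libraries above all white ones at any size, while 4891 (7.04%) had all of them below.

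The members were regions of intermediate methylation. With levels below 30% called low, 30% to 70% partial and above 70% high, 203 members were partial in both brown and white. A further 177 were high in brown and partial in white, 150 partial in brown and low in white, and 24 high in both. Only 16 were low in both and 3 high in brown and low in white. Partial levels in white were found in 66.3% of members and in 17.04% of all measured intervals. A difference of 15 points leaves less room near 0% or 100%, so the rule itself favours intermediate levels.

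Members lay away from gene starts. Of the 573, 291 (50.8%) were intergenic, 224 (39.1%) in introns, 32 (5.58%) in exons and 26 (4.54%) in promoter windows, here 1000 bp upstream to 500 bp downstream of a start. Of all measured intervals, 30.6% were intergenic, 30.8% intronic, 12.9% exonic and 25.7% in promoter windows. The intervals lower in brown were placed much like the members, with 4.71% of them in promoter windows, 9.52% exonic, 38.4% intronic and 47.4% intergenic. The median distance to the nearest start was 24272 bp for members, 24520 bp for the intervals lower in brown and 6499 bp for all intervals. Members made up 0.146% of promoter, 0.358% of exon, 1.05% of intron and 1.37% of intergenic intervals. Among the 12271 intervals with a partial level over both lineages the shares were 1.81% in promoters, 1.48% in exons, 3.44% in introns and 4.13% in intergenic sequence. The classes rest on the levels the rule used, and the part of level in the placement was not tested.

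**Figure D2:**
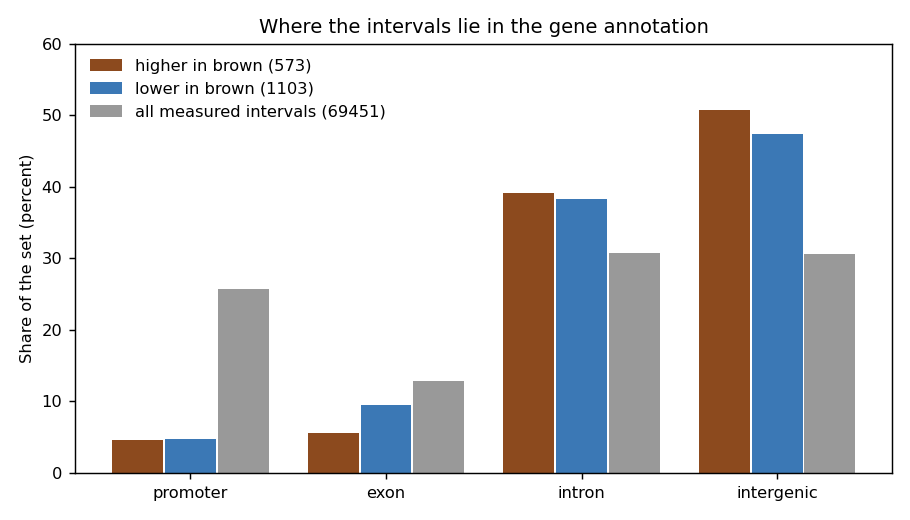
Share of each set (percent, vertical axis) that is in a promoter window, exonic, intronic or intergenic, for the intervals higher in brown, those lower in brown and all measured intervals. The first pair of sets have similar shares, with under 5% in promoter windows against 25.7% of all intervals.

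The DNA of the members, like that of the intervals lower in brown, was poorer in CpG than that of the measured genome. The median GC content was 47.8% in members, 48.6% in the intervals lower in brown and 51.4% over all intervals. The median number of CpGs per interval was 10 in both sets and 12 over all intervals. A CpG island composition was taken as GC of at least 50% and an observed to expected CpG ratio of at least 0.6 over the interval. Only 2.09% of members and 1.63% of the intervals lower in brown had it, against 20.7% of all intervals. The share holding each of 3 short motifs, all identical on both strands, was counted over the 500 bp of every interval. CACGTG, an E-box bound by bHLH factors such as Myc and Usf1, was in 10.1% of members, 8.79% of the intervals lower in brown and 9.60% of all. CAGCTG, an E-box bound by myogenic bHLH factors, was in 28.4% of members, 37.3% of the intervals lower in brown and 26.7% of all. TGACGTCA, the palindromic cAMP response element, was in 0.349% of members, 0.635% of the intervals lower in brown and 0.934% of all. These counts describe letters in a window and not binding.

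Within members most cytosines had the direction that the rule set for their mean. Of 4070 measured cytosines in the set, 4016 (98.7%) had a higher mean in brown and 2572 (63.2%) had every brown library above every white one. Over the 726094 cytosines of all intervals these shares were 44.7% and 1.38%. In 521 of the 573 members all measured cytosines were higher in brown. Both strands were measured in 560 members, and in all 560 the mean difference was positive on each strand, with medians of 20.2 points forward and 21.5 points reverse. Cytosines inside the MspI and TaqI recognition sites lie at fragment ends and can be altered by end repair. They made up 24.8% of the members' cytosines, 25.1% of those in the intervals lower in brown and 17.7% of all. Without them, 452 members still had 4 cytosines, all 452 kept a higher brown mean and 412 met the whole rule. These counts use the cytosines that chose the members and are given as a description.

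Neighbouring intervals were compared next. Measured intervals directly next to a member, of which there were 80, differed by a median of 13.8 points, and 36 were members themselves. Brown was higher in 70 of the 80 (87.5%), against 47.0% of all intervals. The rule gives the 36 members a difference of at least 15 points, so it partly fixes this median and direction. At 1000 bp from a member the median difference was 0.72 points over 34 intervals, and at 1500 bp it was -0.09 points over 38. At 2000 bp it was 2.69 points over 31, with 21 of these (67.7%) above 0, against 47.0% of all intervals. Members were still more frequent at these distances than over all intervals (0.825%), at 17.6% (6 of 34) at 1000 bp and 10.5% (4 of 38) at 1500 bp. The share was 12.9% (4 of 31) at 2000 bp, 14.3% (6 of 42) at 2500 bp and 5.88% (2 of 34) at 3000 bp. It was 0 of 44 at 3500 bp, 0 of 29 at 4000 bp, 4.26% at 4500 bp and 9.30% at 5000 bp. These small counts include members of the same locus and count each pair of members from both sides. Joined where they touched or were separated by at most 1 interval, the members formed 552 groups, of which 21 held 2 members and none held more. The 6 pairs with the widest member were those of Dmrt1, upstream of Slc38a1, upstream of Lmcd1, in introns of Aqr and Gm20388, and at Slit2. RRBS covers only scattered fragments, so most of the flanking sequence was not measured.

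Slit2, a secreted guidance cue of axons and migrating cells, held its pair near the end of the gene, 319.9 kb from its start. The intron interval chr5:48694001-48694500 was at 70.8%, 77.9% and 80.7% in BAT at days 0, 4 and 6 and 71.1% in BAT NE, against 40.8%, 37.1% and 31.0% in WAT at days 0, 4 and 6 and 40.3% and 37.9% in BWAT at days 4 and 6. The coding exon interval chr5:48695001-48695500 did not touch it, with 1 interval between them. It averaged 86.5% ± 3.5 in brown and 67.3% ± 4.6 in white (SD, n = 4 and 5 libraries). Both were separated in all 9 libraries. The pair in Aqr, an RNA helicase of the spliceosome, averaged 74.2% ± 4.8 and 87.2% ± 3.7 in brown, against 35.8% ± 2.2 and 58.9% ± 5.6 in white.

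Some members gathered on a larger scale. With members chained across gaps of up to 50 kb, a distance chosen after the values were seen, 526 loci resulted, of which 40 held 2 or more members. The locus of Emx2 and its antisense transcript Emx2os held 4 members among the 7 intervals measured across 12 kb. It is described in full because of this, after its values were seen.

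Emx2, a homeobox factor of forebrain and urogenital patterning, was methylated more in brown on both sides of its start. Its coding exon interval chr19:59536001-59536500 had levels of 52.0%, 59.9% and 46.3% in BAT at days 0, 4 and 6 and 43.6% in BAT NE, against 14.1%, 10.1% and 17.4% in WAT at days 0, 4 and 6 and 8.95% and 10.3% in BWAT at days 4 and 6. The lowest brown library was 26.2 points above the highest white one. Intervals 8.6 kb and 10.3 kb from the gene start averaged 49.3% ± 0.8 and 50.7% ± 7.0 in brown, against 27.7% ± 1.8 and 19.9% ± 5.9 in white. The Emx2os intron interval 1.5 kb upstream of Emx2 averaged 37.3% ± 7.8 in brown and 14.1% ± 2.5 in white. The promoter intervals of Emx2 stayed below 3% in every library, with means of 0.95% and 2.20% in brown and 0.78% and 1.4998% in white. An interval of the mirrored set lay at the edge, 12.5 kb from the gene start, at 27.3% ± 3.8 in brown and 67.5% ± 4.9 in white, the reverse of its neighbours.

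The list of homeobox and positional regulators outside the Hox clusters (123 genes reported here, 111 of them with a measured interval in promoter, exon or intron) had 9 members among 526 such intervals, or 1.71%. Over all intervals in promoters, exons and introns the share was 0.585% (282 of 48190). The same list had 15 intervals of the mirrored set (2.85%), at En1, Lhx9, Pitx1, Lmx1b, Pax1 and Tbx5, against 1.20% of all intervals at genes. The median difference over the list's 526 intervals was 0.08 points, against -0.05 points over all intervals at genes, so the list as a whole was centred near 0. The 9 members fell in 6 genes, namely Osr2, Tbx2, Mab21l1, Emx2, Shox2 and Zic2, and are not independent where they share a gene. A further 12 members were intergenic and nearest to a listed gene, 2.20% of the 546 such intervals, against 1.37% of all intergenic intervals. The mirrored set held 25 of these 546 (4.58%), against 2.46% of all intergenic intervals.

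Osr2, a zinc finger factor of palate, limb and joint development, held an adjacent pair. The intron interval chr15:35229501-35230000 had levels of 58.4%, 65.1% and 67.4% in BAT at days 0, 4 and 6 and 59.7% in BAT NE, against 24.1%, 28.8% and 32.6% in WAT at days 0, 4 and 6 and 23.8% and 37.2% in BWAT at days 4 and 6. The coding exon interval next to it averaged 63.4% ± 5.3 in brown and 33.7% ± 3.8 in white. Its promoter interval, 0.2 kb inside the gene, was nearly unmethylated in both lineages, at 0.89% ± 0.29 in brown and 0.94% ± 0.67 in white. The promoter intervals of Emx2 were also near 0%, but lay 0.7 and 1.2 kb inside the gene, and its 5′ end was not measured.

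**Figure D3:**
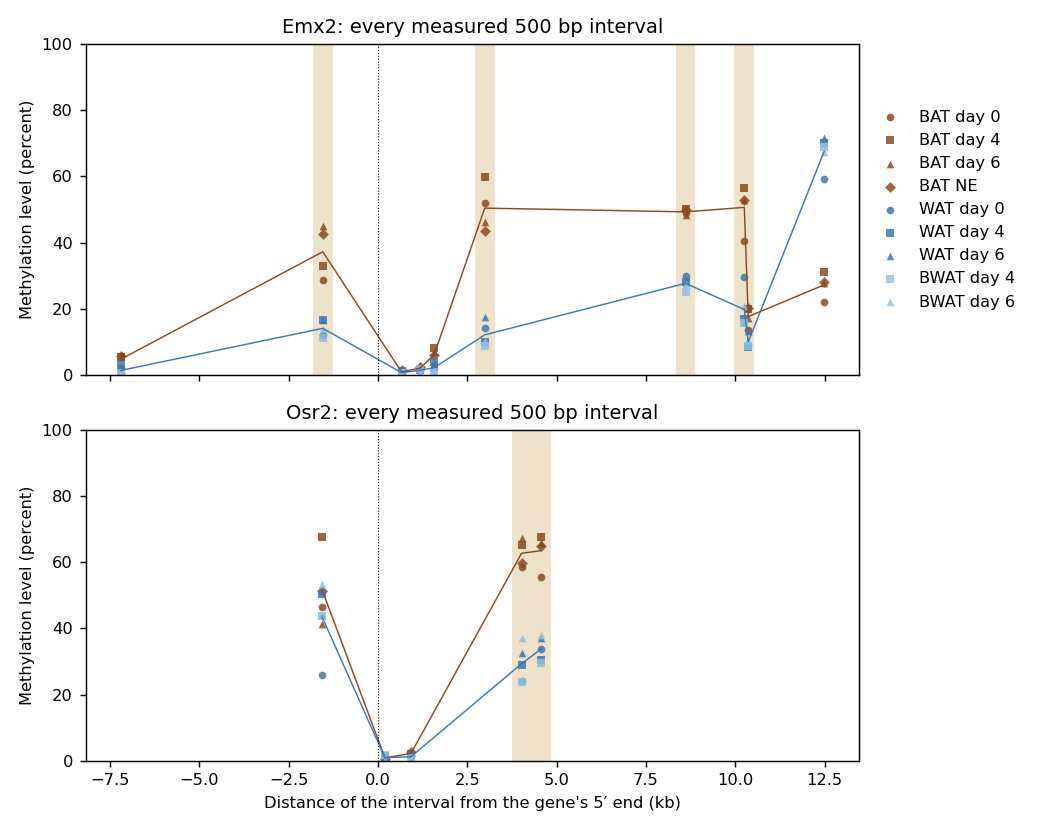
Methylation level (percent, vertical axis) of every measured interval against its distance from the 5′ end of Emx2 (above) and Osr2 (below), in kb, with 1 point per library, lines through the brown and white means, and shaded bands at members. Both lineages are near 0% at 0.7 and 1.2 kb inside Emx2 and at 0.2 and 0.9 kb inside Osr2. Brown lies above white in the bands, and the order turns 12.5 kb from the start of Emx2.

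Tbx2, a T-box repressor of limb and heart patterning, had 2 coding exon members of 6 measured intervals, at 61.2% ± 2.9 and 49.8% ± 3.4 in brown and 35.3% ± 4.6 and 33.1% ± 3.8 in white. Shox2, a homeobox factor of the proximal limb and the sinoatrial node, had 1 intron member of 3 measured, at 45.0% ± 2.7 in brown and 19.4% ± 3.1 in white. Mab21l1, needed for eye and preputial gland development in the mouse, had both of its measured intervals in the set, with differences of 15.2 and 16.4 points. In its promoter interval BAT day 6 was at 11.2%, only 0.9 points above the highest white library, while the other brown libraries were between 24.8% and 31.0%. The 3' end of Zic2 and the sequence 2.4 kb upstream of its neighbour Zic5, zinc finger factors of neural and somite patterning, were members as well, at 35.6% ± 3.2 and 69.2% ± 3.7 in brown, against 18.4% ± 2.2 and 47.5% ± 3.4 in white.

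**Figure D4:**
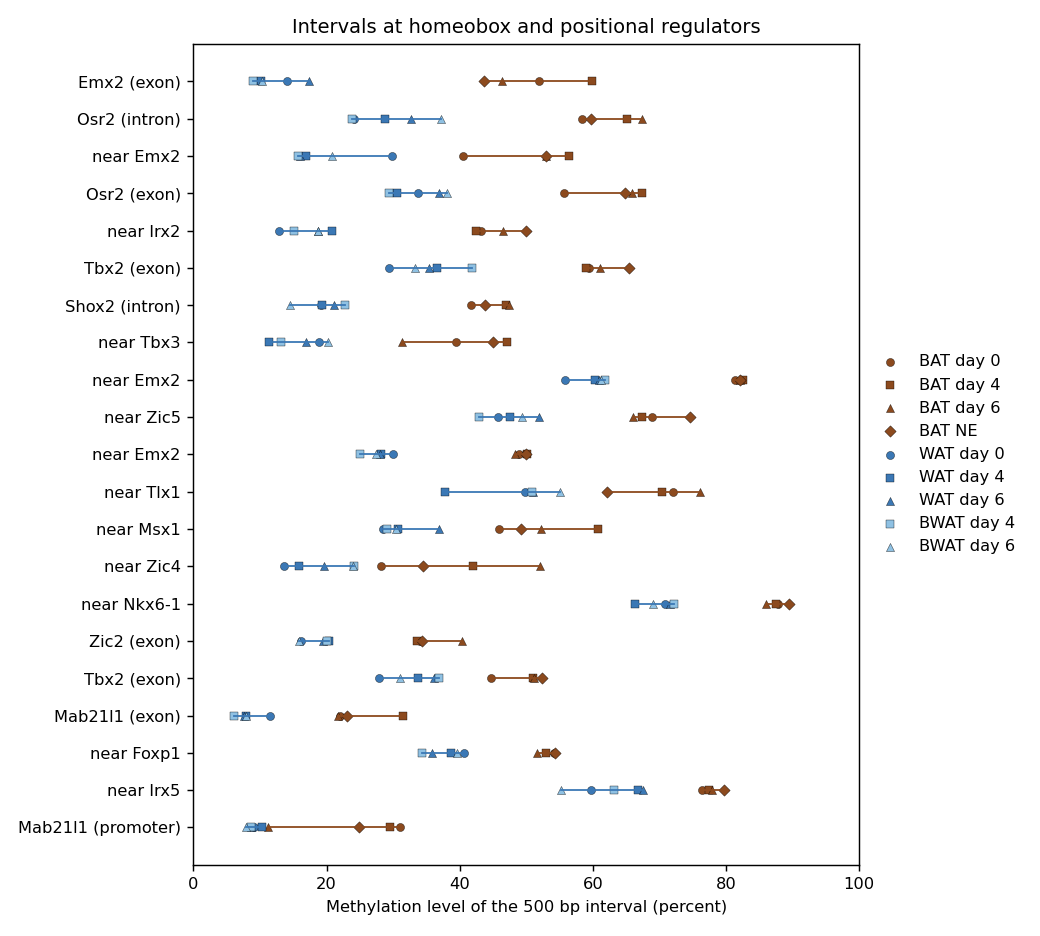
Methylation level (percent, horizontal axis) of the 21 members that lie in, or between genes nearest to, a listed homeobox or positional regulator, 1 row each in order of difference, with 1 point per library and a line from the lowest to the highest library of each lineage. Differences run between 38.3 points in the Emx2 exon (top) and 15.2 points in the Mab21l1 promoter (bottom), and brown means between 24.2% and 87.7%.

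Promoter members were few, and 18 of the 26 were at starts of protein-coding genes, the rest at lincRNAs and other transcripts. One was at an internal start of Ccdc42, a coiled-coil protein of sperm formation, with 77.3% ± 4.4 in brown and 45.3% ± 6.1 in white (SD, n = 4 and 5 libraries). Rap1gap, which switches off the small GTPase Rap1, had a member 0.8 kb upstream of its start, chr4:137219501-137220000. It was at 78.9%, 80.7% and 80.2% in BAT at days 0, 4 and 6 and 81.0% in BAT NE, against 43.1%, 57.9% and 53.4% in WAT at days 0, 4 and 6 and 47.2% and 51.7% in BWAT at days 4 and 6. The brown libraries lay close together, and the white ones were more spread.

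Scarb1, the high-density lipoprotein receptor, held a promoter member at an internal start 54.9 kb into the gene, at 59.8% ± 3.4 in brown and 40.7% ± 3.4 in white. This is not the outermost start of the gene. The promoter windows of Padi1, Kng1, Cplx4 and Tubgcp5 were also among the widest 10 at protein-coding genes, with differences of 23.3, 21.1, 18.02 and 17.8 points.

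The lists of fat cell genes were read against all intervals at genes, of which 0.585% were members and 1.20% belonged to the mirrored set. Of 184 intervals at 26 measured brown fat genes 2 were members (1.09%), both in introns of Prdm16, a coregulator that drives brown fat fate, and 2 were in the mirrored set, at Ebf2 (1.09%). The interval chr4:153720501-153721000 of Prdm16 was at 47.5%, 47.0% and 58.1% in BAT at days 0, 4 and 6 and 52.4% in BAT NE, against 21.2%, 20.5% and 34.9% in WAT at days 0, 4 and 6 and 21.4% and 27.8% in BWAT at days 4 and 6. The other, at 85.1% ± 4.1 in brown and 68.6% ± 3.0 in white, lay 166.2 kb into the gene. The other 35 measured intervals of Prdm16 were in neither set, and those at its outermost start were at 0.9% in brown and at or below 1.1% in white.

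None of 120 intervals at pan-adipogenic genes was in either set, and the white and beige fat list had 1 member of 87 (1.15%), at Shox2, and none of the mirrored set. The preadipocyte list had 2 members of 227 (0.881%) and 5 intervals of the mirrored set (2.20%). The members were both in introns of Runx2, the transcription factor that drives bone formation, at 80.3% ± 0.7 and 37.1% ± 6.1 in brown and 56.4% ± 2.3 and 21.5% ± 3.6 in white. Adrenergic and cAMP signalling genes had 2 members of 258 (0.775%) and 7 of the mirrored set (2.71%). Mapk14, the p38 alpha kinase, was at 58.6% ± 3.5 in brown and 34.7% ± 5.4 in white in an intron. Adra1a, the alpha-1A adrenergic receptor, was at 64.7% ± 4.1 in brown and 49.2% ± 5.2 in white in its promoter window. Smad6, an inhibitor of Bmp signalling, held both members of the Wnt, Bmp and Tgf-beta list (2 of 305, or 0.656%), with differences of 18.1 and 15.6 points, and the list had 3 of the mirrored set. The imprinted list had 1 member of 146 (0.685%), in Ppp1r9a, and 2 of the mirrored set. Clustered protocadherins had 0 members of 44, skeletal muscle genes 0 of 140 and the DNA methylation machinery 0 of 77, and of the mirrored set 0, 1 and 0. The lists are short, and no difference from the shares over all intervals at genes was tested.

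The culture of each lineage could hold other cells, and their marker lists were looked at in the same way and read against the same 0.585%. Endothelial, haematopoietic, and smooth muscle and pericyte lists had no member among 66, 11 and 34 intervals. At a share of 0.585%, lists this short are expected to hold few or no members. The epithelial and neural lists had 1 each of 33 and 86, in Epcam (95.5% ± 2.3 in brown and 73.6% ± 4.0 in white) and Rbfox3. The Epcam member was an exon interval 10.2 kb from the start, and 1 of 5 intervals measured at the gene. The Epcam interval nearest the start, an intron one, was at 3.47% in brown and 2.99% in white. In the mirrored set were 2 intervals of the endothelial list (3.03%), 1 of the haematopoietic list (9.09%) and 2 of the smooth muscle list (5.88%). It also held 2 of the neural list (2.33%), both in Rbfox3, and 0 of the epithelial list. Of all intervals at genes, 1.20% were in the mirrored set. The endothelial ones included the promoter of Pecam1, at 48.5% ± 3.2 in brown and 72.2% ± 2.4 in white. The part of cell mixture in the members was not tested. Expression was not analysed here, and the labels of the cells were set against promoter methylation only. Of 20 marker genes looked up, 11 had a measured promoter interval, and those of the adipogenic factors Pparg and Cebpa and of Cidea were below 4% in all 9 libraries. Such levels do not identify the cells, since 12 of the 21 promoter intervals had both means under 10%. The muscle gene Myod1 was among these, at 1.71% in brown and 2.38% in white. None of the 21 was a member, and 2 were in the mirrored set, at Pecam1 and Ebf2 (12.6% in brown and 28.3% in white). Myf5 was at 77.1% in brown and 90.2% in white.

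The members' levels were next set out by day. The rule itself placed BAT above WAT at each day, so the direction at day 0 is fixed by the choice of members and the sizes are a description. Over the 573 members the median BAT minus WAT difference was 19.8 points at day 0, 20.9 points at day 4 and 20.5 points at day 6. Of the members, 312 (54.5%) differed by at least 15 points at each of the 3 days. The median level was 62.7%, 63.5% and 63.4% in BAT at days 0, 4 and 6 and 64.0% in BAT NE, against 39.5%, 39.3% and 40.9% in WAT at days 0, 4 and 6 and 39.99% and 39.7% in BWAT at days 4 and 6. Medians within a lineage thus stayed within 2 points of each other. BAT day 0 was the lowest brown library in 200 members and WAT day 6 the highest white library in 168, each the most often of its lineage. Over all 69451 intervals BAT day 0 also had the lowest mean level of the brown libraries (52.5%). WAT day 6 likewise had the highest of the white ones (53.7%).

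**Figure D5:**
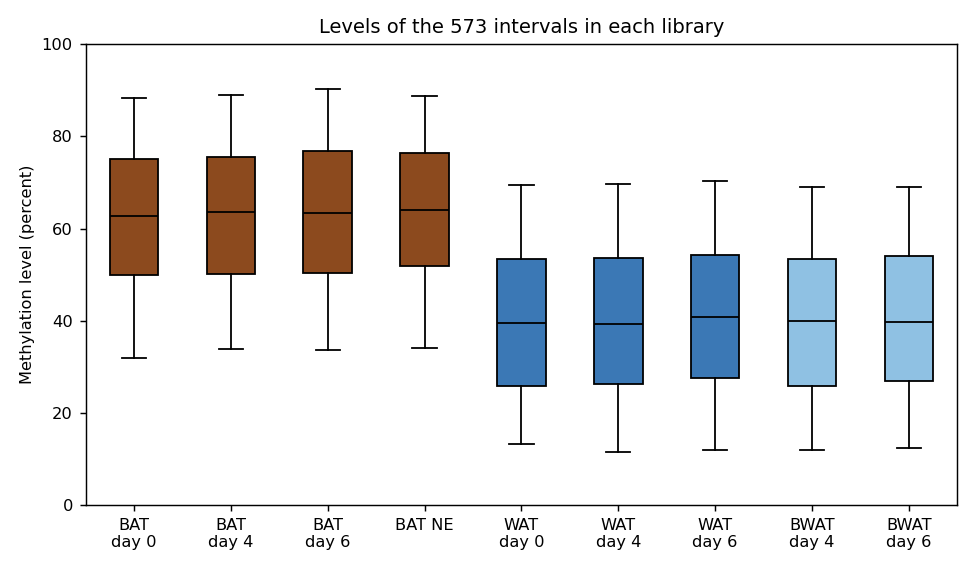
Distribution of the levels (percent, vertical axis) of the 573 members in each library, with the median as a line, the quartiles as a box and the 5th to 95th percentiles as whiskers. Medians are between 62.7% and 64.0% in the 4 brown libraries and between 39.3% and 40.9% in the 5 white libraries.

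Change within a lineage is another contrast than the one that chose the members, and it was tested with limma. The rule used the same libraries, however, and by asking for lineages that do not overlap it favours intervals that change little within one, so the members' counts below are a description and no test of stability. Levels were first transformed to logits, log2((level + 1)/(100 - level + 1)), and the fit covered all 69451 intervals with Benjamini-Hochberg adjustment. Brown libraries after day 0 against BAT day 0 gave 11 intervals higher (0.0158%) and 40 lower (0.0576%), and none of the 573 members was among them. An unadjusted p under 0.05 was found at 35 of the 573 members and at 5227 of all 69451 intervals. White libraries after day 0 against WAT day 0 gave 1 higher (0.00144%) and 11 lower (0.0158%), again with no member. Here 33 of the 573 members and 3779 of all 69451 intervals had an unadjusted p under 0.05. The median change over members was 1.17 points in brown and 0.38 points in white, against 0.33 and 0.14 points over all intervals. Each lineage had 1 library at day 0.

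The change of the brown-white difference after day 0 was called at no interval (0%). Its unadjusted limma p was under 0.05 at 24 of the 573 members and at 3189 of the 69451 intervals. The median change was 0.70 points over members and 0.21 points over all intervals. The member nearest to a call in brown was an intron interval of Smyd3, a lysine methyltransferase, which was at 88.2%, 87.3% and 86.0% in BAT day 4, BAT day 6 and BAT NE, against 72.8% in BAT day 0. Its estimate was 1.29 logit units (SE 0.23), with a limma adjusted p of 0.159. For the change of the difference the smallest adjusted p among members was 0.730, at Smyd3, at the interval 10.3 kb from the start of Emx2 and, with the opposite sign, at the coding exon of Slit2.

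No change of the members with norepinephrine was called. BAT NE against BAT of days 4 and 6 was called at no interval (0%). An unadjusted limma p under 0.05 was reached by 21 of the 573 members and by 4055 of the 69451 intervals. The median change was 0.54 points over members and 0.09 points over all intervals. BWAT against WAT of days 4 and 6 was also called at no interval (0%). Its unadjusted limma p was under 0.05 at 16 of the 573 members and at 3261 of the 69451 intervals. Its median change was -0.62 points over members and -0.14 points over all intervals. BWAT lay above WAT in 241 of 573 members (42.1%) and in 45.1% of all intervals. Set against the distance between BAT and WAT at the same days, BWAT stood at a median of -2.72% (interquartile range -14.1% to 8.59%), where 0% is the WAT level and 100% the BAT level. The rule placed BWAT below every brown library, which limits how near to BAT it could lie.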

How the data were processed

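Percent methylation per CpG cytosine was deposited by the authors as 1 table of 838481 autosomal cytosines in 9 RRBS libraries. The authors digested DNA with MspI and TaqαI, aligned bisulfite reads to mm9 with Bowtie, per the submitters' processing notes (version not given in the sources used here) and kept cytosines with at least 10 reads in every library. Read counts are not used here, so the depth behind each value is unknown beyond that minimum. Depth limits precision, as do the numbers of cytosines and libraries.

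All 838481 positions were checked to be CpGs of NCBIM37. Cytosines were averaged, unweighted, per library in fixed 500 bp intervals with at least 4 of them. Intervals over the Hox clusters were left out. Annotation was GENCODE vM1, with precedence promoter, exon, intron, intergenic, taken at the middle of the measured cytosines. An intergenic interval was named by the nearest protein-coding start. limma 3.58.1 in R 4.3.3 fitted 4 groups (day 0 and later of each lineage) or, for norepinephrine, 6 groups. Other steps used Python 3.11.15 with pandas 2.3.3 and pysam 0.24.0. An adjusted p under 0.05 was called. The fit was tested on simulated data. p-values measure the spread between these libraries, which may be technical.

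The members and gene lists were chosen with earlier results of these data known. Named were the 15 widest members, the 10 widest in promoters of protein-coding genes, the 6 leading runs of neighbours, up to 4 members per gene list, the leading members of each contrast and those at the threshold. Some items that met this rule are not reported here. Alternatives changed the interval size and grid, the cytosine minimum, the size threshold, the scale, restriction-site cytosines and each library in turn.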

Additional observations from a re-analysis of the deposited data

Results flagged for a closer look

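In 47 named intervals the 4 brown and the 5 white libraries were each searched for 1 library far from the others, and 8 of the 94 sets held one. Chance alone marks about 1 set in 20. Among brown libraries these were BAT day 6 upstream of Htr5a (66.8%, the lowest) and in the intron of 1700011I03Rik (79.5%, the highest), and BAT day 0 at the interval far upstream of Gm765 (65.1%, the highest). Among white libraries they were WAT day 0 in the intron of 1700011I03Rik (35.4%, the highest) and in the coding exon of Slit2 (59.4%, the lowest), WAT day 4 in 4930555I21Rik (55.7%, the highest), WAT day 6 in Aqr (39.7%, the highest), and BWAT day 4 at the first interval upstream of Lmcd1 (55.3%, the highest). The libraries of a set differ in day and treatment, and with 1 library per condition an odd value cannot be told apart from that condition.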

How the results depend on the processing

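The number of members depended most on the thresholds. It was 350 with at least 6 cytosines per interval, 200 with at least 8, and 364 with the strands of a CpG averaged and at least 4 CpGs. With a minimum difference of 10, 20 or 30 points it was 1198, 287 and 78. The other 14 of 20 alternatives stayed within 1.5 times of 573, and leaving out each library in turn gave 573 to 632. In none of these alternatives did the members outnumber the mirrored set. No member was called in any of 65 alternative fits of the 5 contrasts within lineages. Over all intervals those fits called 0 to 67 for later days in brown, 0 to 14 for later days in white, 0 for the change of the difference, 0 for BAT NE and 0 to 1 for BWAT, and without BAT NE and BWAT both day contrasts called 0. The median estimate over members changed sign among the fits for BAT NE (-0.04 to 0.03 logit units). With a term for day 6 against day 4 added, BAT NE and BWAT again had 0 calls. The interval levels carry no read depth, so single libraries could not be weighted.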

Other observations

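Some genes carried intervals of both directions. Of the 248 genes with a member in promoter, exon or intron, 36 also held an interval of the mirrored set. Genes with many measured intervals have more room for both kinds. The share over all measured genes was not counted, so the 36 are a description. In Epha6, an ephrin receptor of axon guidance, an intron member was at 78.7% ± 1.8 in brown and 43.9% ± 2.8 in white (SD, n = 4 and 5 libraries), while another intron interval was at 47.4% ± 2.5 in brown and 83.5% ± 3.5 in white. In Tnfrsf19, a receptor of the tumour necrosis factor family, a member was at 91.6% ± 1.3 in brown and 53.9% ± 2.2 in white, and a mirrored interval of another intron stretch at 38.6% ± 5.0 in brown and 72.4% ± 3.1 in white. The long annotated gene Gm20388 held 6 members and 9 intervals of the mirrored set among 244 measured. Over all intervals at genes, 0.585% were members and 1.20% were in the mirrored set. Efcab6, Dlgap1 and Abcc4 each had 1 interval of both kinds, all in introns. These genes were chosen after their values were seen, as those with the widest differences on both sides.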
